A study of Mus musculus with 24 samples.

Results

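Platelets are small cell fragments shed by megakaryocytes, and they carry messenger RNA and granules made in the parent cell. Each of the 10 genes described here encodes a protein found in platelets and megakaryocytes: the subunits of the glycoprotein Ib-IX-V receptor for von Willebrand factor (Gp1ba, Gp1bb, Gp9 and Gp5), the integrin chain Itga2b, the collagen receptor Gp6, the granule chemokines Ppbp and Pf4, the granule membrane receptor Treml1 and the lipoxygenase Alox12. At a tear in an artery the receptors hold platelets to exposed matrix, the integrin binds fibrinogen and links platelets together, and the granules release the chemokines. The genes were chosen by name from an array study of the mouse aorta with their signals on these same 24 arrays in view, and the brightest probe of each was read on every array. Those signals are therefore given as a description, with no test of the 10 genes. They are 10 genes beside 23505 that were bright enough to be tested, and 9 of the 10 are among those.

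The study concerned high salt intake, aortic dissection and interleukin 17. Aortic RNA came from wild-type C57BL/6 mice and from C57BL/6 mice without IL-17, all on normal chow, with 3 arrays, stated to be biological replicates, in each of 8 groups. In each genotype the control group drank plain water and received vehicle, the salt group drank 1% NaCl and received vehicle, the infusion group drank plain water and was infused for 3 days with BAPN (β-aminopropionitrile, an inhibitor of lysyl oxidase and so of the crosslinking of elastin and collagen) and angiotensin II, and the last group had both (written "with both"), with salt given before and throughout the infusion. The labels name the agent of the infused groups only as BAPN, and they give neither age nor the deleted part of the gene.

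The probes for Il17a and Il17f were well above background on 0 of 24 arrays, wild-type arrays included, so they check nothing about the genotypes. Signals are given as relative signal, the background-subtracted intensity of a probe set to 100 at the 75th percentile of its array. The lowest relative signal of any probe well above background was 2.06 to 5.74, depending on the array. All 8 markers of smooth muscle, the main cell of the aortic media, were well above background on every array, and so were all 11 endothelial markers. The arrays lay on 4 slides. No slide held both genotypes, so genotype and slide cannot be told apart. Salt without infusion was compared within a slide in each genotype (slide 3 in the wild type, slide 1 in the knockout), whereas wild-type infusion on plain water and knockout infusion on salt were compared across slides. Since the tissue was measured in bulk, more cells or platelets and more RNA in each cannot be told apart.

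Promoters of 4 of the genes are shown, because Gp9, Ppbp and Treml1 varied together over the arrays while Gp1ba did not vary with them. Each is the 250 bases before the gene's start from RefSeq on GRCm38.p6, read on the + strand, at chr6:87777820-87778069 for Gp9, chr5:90768268-90768517 for Ppbp, chr17:48359666-48359915 for Treml1 and chr11:70638872-70639121 for Gp1ba. Capitals mark the letters searched on both strands, counted wherever they occurred: AGATAA or its variant AGATAG as well as TGATAA or its variant TGATAG as a GATA motif, and AGGAAG or else CGGAAG as an ETS motif, the recognition letters of 2 families of factors known from megakaryocytes.
Gp9: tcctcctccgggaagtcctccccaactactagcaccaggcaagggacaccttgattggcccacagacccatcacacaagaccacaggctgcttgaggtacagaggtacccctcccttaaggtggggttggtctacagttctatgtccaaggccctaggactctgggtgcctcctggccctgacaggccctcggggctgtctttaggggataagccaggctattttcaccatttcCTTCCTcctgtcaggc
Ppbp: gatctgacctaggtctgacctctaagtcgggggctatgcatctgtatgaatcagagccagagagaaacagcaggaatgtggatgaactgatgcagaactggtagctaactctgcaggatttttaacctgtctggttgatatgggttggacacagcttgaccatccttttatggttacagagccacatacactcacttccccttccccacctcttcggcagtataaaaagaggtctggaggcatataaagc
Treml1: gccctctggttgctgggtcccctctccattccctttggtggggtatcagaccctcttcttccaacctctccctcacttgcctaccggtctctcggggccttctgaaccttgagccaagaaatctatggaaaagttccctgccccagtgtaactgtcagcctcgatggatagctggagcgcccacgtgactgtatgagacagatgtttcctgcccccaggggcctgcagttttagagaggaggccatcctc
Gp1ba: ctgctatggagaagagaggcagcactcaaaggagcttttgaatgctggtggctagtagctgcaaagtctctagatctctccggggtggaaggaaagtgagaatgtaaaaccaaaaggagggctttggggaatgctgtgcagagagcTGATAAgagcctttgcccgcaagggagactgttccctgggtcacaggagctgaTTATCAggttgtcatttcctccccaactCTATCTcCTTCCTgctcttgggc
The Gp1ba window held 3 GATA matches, 104, 51 and 23 bases before the start, and an ETS match 16 bases before it. The Gp9 window held an ETS match 16 bases before the start, and those of Ppbp and Treml1 held neither motif. Over the 10 genes, all of which had a promoter in the table, 4 had a GATA match, 6 an ETS match and 3 both. Among 32851 promoters of the same length the shares were 26.5% with a GATA match, 39.2% with an ETS match and 9.21% with both. A match is only a run of letters, and genes with and without one are found among those that varied together.

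Gp9 encodes the small glycoprotein IX subunit that the receptor for von Willebrand factor needs to reach the platelet surface (probe at mm9 chromosome 6, 87729650 to 87729709, + strand). Gp9 read 7.87, 5.53 and 14.5 on the wild-type control arrays, 52.5, 27.9 and 43.5 with salt, 6.63, 27.3 and 5.01 with infusion, and 8.74, 43.5 and 10.2 with both. In the knockout Gp9 read 4.58, 9.99 and 4.47 on the control arrays, 7.67, 28.4 and 7.74 with salt, 22.1, 10.1 and 12.6 with infusion, and 9.18, 19.5 and 16.03 with both. All 3 wild-type salt arrays were high, and in every other group at most 1 array reached their range. The probe was well above background on 21 arrays, the exceptions being knockout controls 1 and 3 and wild-type infusion array 3. In order of geometric mean the groups ran from the wild-type salt group at 40.0, through wild type with both at 15.7, knockout with both at 14.2, knockout infusion at 14.1, knockout salt at 11.9, wild-type infusion at 9.69 and wild-type control at 8.57, to the knockout control at 5.89. Each neighbouring pair in that order overlapped.

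Ppbp encodes pro-platelet basic protein, the granule precursor of the chemokine CXCL7 that attracts neutrophils (mm9 chromosome 5, 91198970 to 91199029, + strand). Ppbp read 12.1, 7.48 and 23.3 on the wild-type control arrays, 131, 69.0 and 96.7 with salt, 37.6, 130.4 and 4.36 with infusion, and 16.1, 70.4 and 17.6 with both. In the knockout Ppbp read 12.1, 15.3 and 6.75 on the control arrays, 14.5, 70.6 and 14.4 with salt, 75.4, 14.96 and 17.2 with infusion, and 11.4, 40.6 and 22.8 with both. The readings ran from 4.36 to 131, and the lowest, on wild-type infusion array 3, was not well above background. Infusion array 2 of the same group was near the top of the range.

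Treml1 encodes TLT-1, a receptor stored in the granule membrane and exposed when platelets are activated (mm9 chromosome 17, 48506365 to 48506424, + strand). Treml1 read 13.2, 13.8 and 20.2 on the wild-type control arrays, 63.7, 30.8 and 40.1 with salt, 15.8, 29.6 and 14.1 with infusion, and 11.8, 48.9 and 11.4 with both. In the knockout Treml1 read 8.93, 9.62 and 6.87 on the control arrays, 6.50, 30.0 and 8.43 with salt, 20.0, 12.1 and 11.8 with infusion, and 13.1, 28.7 and 17.3 with both. The arrays high for Gp9 and Ppbp were high again.

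**Figure D1:**
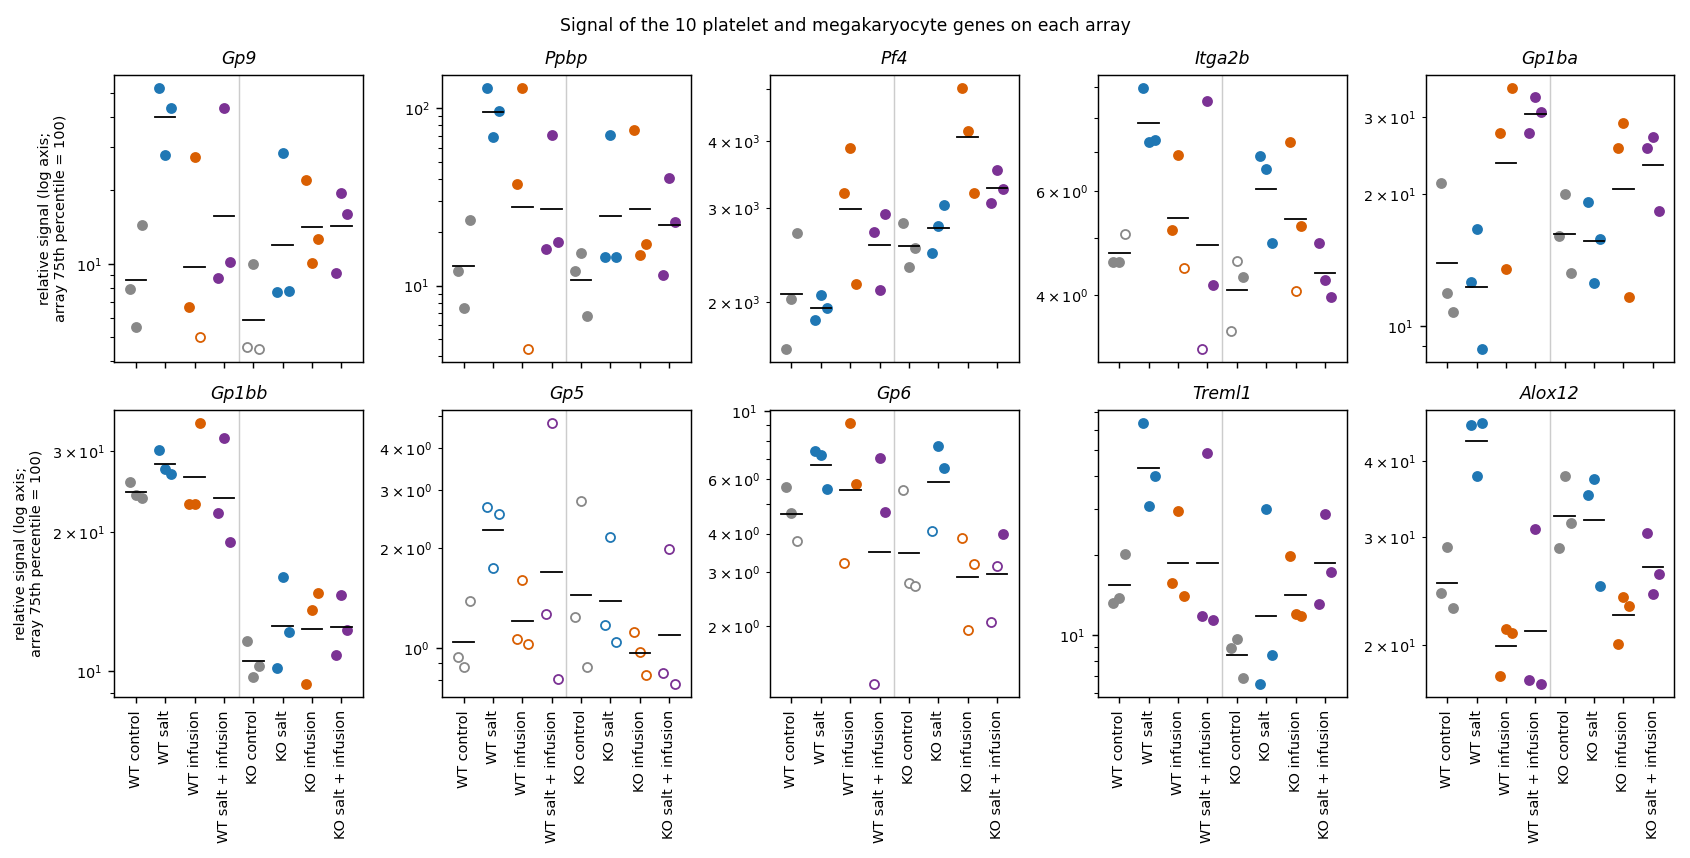
Relative signal of the 10 genes on each of the 24 arrays (log axis, array 75th percentile set to 100), by group, wild type (WT) left and knockout (KO) right of the grey line; each point is an array, an open point was not well above background, and a bar is the geometric mean of the 3 arrays. Gp9 and Ppbp are high on all 3 wild-type salt arrays (52.5, 27.9 and 43.5 for Gp9) and on single arrays of other groups, Gp1bb is lower on every knockout array than on every wild-type array, and Gp5 is open throughout.

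The 8 arrays with the highest Gp9 signal were also the 8 with the highest Ppbp signal: the 3 wild-type salt arrays, wild-type infusion array 2, the second wild-type array with both, knockout salt array 2, knockout infusion array 1 and the second knockout array with both. Treml1 shared 7 of its 8 highest arrays with Gp9, Itga2b 7, Gp6 and Alox12 5 each, Gp1bb 4, Pf4 3 and Gp1ba 2; Gp5, below background throughout, is not ranked. Over the 24 arrays the log2 signals of Gp9 and Ppbp had a Pearson r of 0.91 (Spearman rho 0.89), Gp9 and Treml1 0.90 (rho 0.80), and Ppbp and Treml1 0.83 (rho 0.76). After each group's mean was removed r was 0.89, 0.91 and 0.80, so the genes varied together within groups as well. Without the 2 arrays farthest from the median of the first gene, r was 0.90, 0.85 and 0.79. Points of one array share its RNA, slide and scaling, and genes of one family were chosen together, so these values are a description.

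Itga2b encodes the αIIb chain of the fibrinogen receptor αIIbβ3, which is largely confined to the megakaryocyte lineage (mm9 chromosome 11, 102319453 to 102319661, − strand). Itga2b read 4.55, 4.55 and 5.07 on the wild-type control arrays, 8.99, 7.27 and 7.32 with salt, 5.15, 6.92 and 4.44 with infusion, and 3.23, 8.52 and 4.16 with both. In the knockout Itga2b read 3.48, 4.57 and 4.28 on the control arrays, 6.89, 6.54 and 4.89 with salt, 7.28, 4.06 and 5.23 with infusion, and 4.89, 4.24 and 3.96 with both. The signal lay close to background, with 18 of 24 arrays well above it. Its r with Gp9 was 0.76 (rho 0.62), 0.73 within groups and 0.65 without the 2 farthest arrays.

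Gp5 encodes glycoprotein V, which the thrombin protease cleaves at the platelet surface (mm9 chromosome 16, 30308347 to 30308406, − strand). The Gp5 probe was well above background on 0 of 24 arrays and did not enter the tests. Gp5 read 0.941, 0.874 and 1.39 on the wild-type control arrays, 2.66, 1.74 and 2.53 with salt, 1.06, 1.60 and 1.03 with infusion, and 1.26, 4.78 and 0.804 with both. In the knockout Gp5 read 1.24, 2.76 and 0.876 on the control arrays, 1.18, 2.16 and 1.04 with salt, 1.12, 0.974 and 0.831 with infusion, and 0.839, 1.99 and 0.776 with both. These are bounds, with no fold or difference given, and Gp5 is left out of counts of genes that do not overlap.

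Gp6 encodes glycoprotein VI, the main platelet receptor that signals from collagen (mm9 chromosome 7, 4320351 to 4320410, − strand). Gp6 read 5.66, 4.68 and 3.78 on the wild-type control arrays, 7.42, 7.17 and 5.60 with salt, 3.21, 9.16 and 5.79 with infusion, and 1.30, 7.04 and 4.69 with both. In the knockout Gp6 read 5.56, 2.76 and 2.70 on the control arrays, 4.07, 7.72 and 6.52 with salt, 3.88, 1.95 and 3.19 with infusion, and 2.07, 3.13 and 3.99 with both. Only 12 of 24 arrays were well above background, 1 of them among the 9 knockout arrays outside the salt group. The array with the highest signal was wild-type infusion array 2, and the lowest was the first wild-type array with both.

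Alox12 encodes the 12-lipoxygenase of platelets, which makes 12-HETE from arachidonic acid and is also known from skin (mm9 chromosome 11, 70055715 to 70055774, − strand). Alox12 read 24.3, 28.9 and 23.02 on the wild-type control arrays, 45.8, 37.8 and 46.2 with salt, 17.8, 21.2 and 21.0 with infusion, and 17.6, 31.0 and 17.3 with both. In the knockout Alox12 read 28.8, 37.8 and 31.7 on the control arrays, 35.1, 37.4 and 25.0 with salt, 20.1, 24.01 and 23.2 with infusion, and 30.5, 24.3 and 26.2 with both. The wild-type salt arrays were the highest here too, the highest arrays of the knockout lay in its control and salt groups, and 4 of the 5 lowest arrays were infused wild-type ones. A second, dimmer Alox12 probe was well above background on 14 arrays, at 1.48 to 8.76. Of 10 keratinocyte and epithelial markers, 5 to 8 were well above background on an array, and their summed relative signal was 1221 to 1293 in the wild-type salt group and 1324 to 1645 in the wild-type controls; their part in the Alox12 signal was not tested.

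Gp1ba encodes the large subunit that binds von Willebrand factor (mm9 chromosome 11, 70455461 to 70455520, + strand). Gp1ba read 21.2, 11.9 and 10.73 on the wild-type control arrays, 12.6, 16.7 and 8.83 with salt, 27.7, 13.5 and 35.1 with infusion, and 27.6, 33.4 and 30.8 with both. In the knockout Gp1ba read 16.1, 20.0 and 13.2 on the control arrays, 19.2, 12.6 and 15.8 with salt, 25.5, 29.2 and 11.6 with infusion, and 25.6, 27.0 and 18.3 with both. Its high arrays were infused ones, and salt arrays without infusion stayed in the range of the controls or below. The r of Gp1ba with Gp9, its partner in the receptor, was −0.23 (rho −0.18), and −0.33 both within groups and without the 2 farthest arrays.

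Gp1bb encodes the subunit joined to Gp1ba by disulfide bonds (mm9 chromosome 16, 18621107 to 18621166, − strand). Gp1bb read 25.7, 24.1 and 23.7 on the wild-type control arrays, 30.2, 27.4 and 26.7 with salt, 23.1, 23.03 and 34.6 with infusion, and 22.0, 32.0 and 19.1 with both. In the knockout Gp1bb read 11.7, 9.74 and 10.3 on the control arrays, 10.2, 16.01 and 12.2 with salt, 9.38, 13.6 and 14.8 with infusion, and 10.9, 14.7 and 12.3 with both. Every knockout array lay below every wild-type array, with log2 differences (knockout minus wild type) of −1.22 in controls, −1.16 with salt, −1.10 with infusion and −0.93 with both. Of all genes measured 31.4%, 34.5%, 25.2% and 25.5% lay lower in the knockout without overlap in these conditions, and 10.4% had all 12 knockout arrays below all 12 wild-type arrays. None of the other 9 genes was separated by genotype in all 4 conditions: Treml1 was lower in the knockout without overlap in controls (log2 −0.88) and with salt (−1.86), Pf4 was higher with salt (0.49) and with both (0.36), as were 31% and 19.9% of all genes, Itga2b (−0.37) and Alox12 (−0.43) were lower with salt, and Gp1ba was lower with both (−0.39). The other 2 Gp1bb probes were dimmer, one well above background on 14 arrays at 1.59 to 13.6 and the other on 3 arrays.

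Pf4 encodes platelet factor 4, the chemokine CXCL4 of the α-granule, and lies beside Ppbp on chromosome 5 with 2371 bases between the genes (GRCm38.p6; probe at mm9 91202275 to 91202334, + strand). Pf4 read 1634, 2028 and 2696 on the wild-type control arrays, 1854, 2063 and 1952 with salt, 3192, 3877 and 2165 with infusion, and 2708, 2112 and 2919 with both. In the knockout Pf4 read 2812, 2326 and 2520.3 on the control arrays, 2468, 2778 and 3034 with salt, 5031, 4178 and 3199 with infusion, and 3060, 3531 and 3251 with both. Salt arrays overlapped the controls in both genotypes, and the 8 highest arrays were all infused. The r of Pf4 was −0.04 with Gp9 (rho 0.01), 0.12 with Ppbp (rho 0.13) and −0.17 with Treml1 (rho −0.17); within groups it was 0.23, 0.51 and 0.14.

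**Figure D2:**
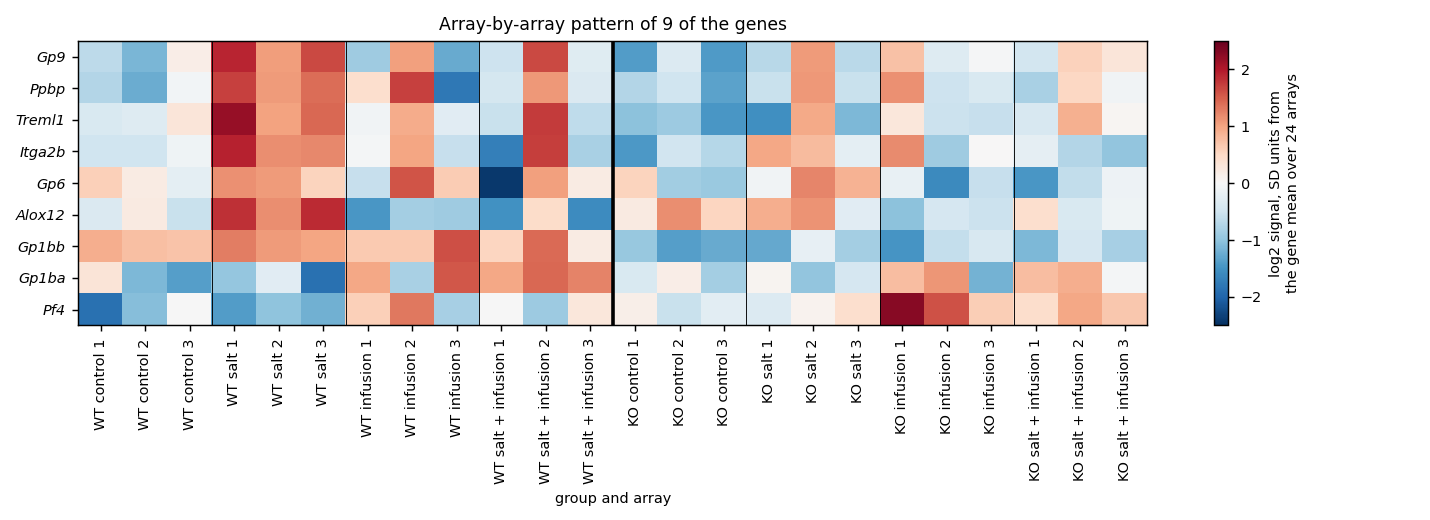
Log2 signal of 9 genes (without Gp5, below background on every array) on each array, in SD units from the gene's mean over the 24 arrays (red above, blue below), with arrays in columns by group and the thick line between wild type and knockout. The 3 wild-type salt columns are red for Gp9, Ppbp, Treml1, Itga2b, Gp6, Alox12 and Gp1bb and blue or near 0 for Gp1ba and Pf4, and single red columns such as the second wild-type array with both stand inside other groups.

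Salt without infusion was compared with plain water in the wild type, within slide 3. Ppbp was 7.45-fold higher with salt (log2 2.90, SE 0.97), Gp9 4.66-fold (2.22, SE 0.68), Treml1 2.77-fold (1.47, SE 0.55), Alox12 1.70-fold (0.77, SE 0.20) and Itga2b 1.66-fold (0.73, SE 0.27), each over 3 arrays against 3. Gp1bb was 1.15-fold higher (0.20, SE 0.21), and −0.28 with the mean of its 3 probes. For these 6 genes, read with the brightest probe, all 3 salt arrays lay above all 3 control arrays. Gp6 (0.53, SE 0.50), Pf4 (−0.09, SE 0.21) and Gp1ba (−0.18, SE 0.37) overlapped. The genes that did not overlap were 6 of the 9 other than Gp5, against 4.03% of all genes measured in this comparison. The genes were chosen with these values in view, and nothing is read from that count. The median log2 difference of the 9 genes other than Gp5 was 0.73 (0.75 with the readings of Gp5), beside −0.02 over all genes tested. It comes from the same chosen genes, so nothing is read from it either. Gp6 was bright enough to be tested only through the wild-type salt group, its sole group with all 3 arrays well above background.

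Of all 23505 genes 0 passed the limma test in this comparison (0% called; 495 genes at an unadjusted p under 0.05; smallest adjusted p = 0.0882). Leaving out any 1 of the 6 arrays left Ppbp between 2.51 and 3.33, Gp9 between 1.90 and 2.60, Treml1 between 1.19 and 1.71, Alox12 between 0.70 and 0.86 and Itga2b between 0.63 and 0.78 on the log2 scale. With another background correction (normexp with an offset of 50), which compresses dim signals, the differences were 1.93, 1.13, 1.00, 0.57 and 0.23 in the same order, and the median with the readings of Gp5 was 0.22.

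In the knockout the same comparison, within slide 1, gave log2 1.19 for Ppbp (SE 0.97), 1.01 for Gp9 (SE 0.68), 0.49 for Treml1 (SE 0.55), 0.56 for Itga2b (SE 0.27) and −0.02 for Alox12 (SE 0.20). Gp9 and Itga2b were well above background on 1 of the 3 control arrays. Gp6 was so on 0 of 3 control and 2 of 3 salt arrays, at least 1.34-fold brighter with salt, the dim group being set at the lowest signal well above background on each array or at its own reading if higher. Only Itga2b had its 3 salt arrays above its 3 control arrays, 1 of 9 genes against 5.7% of all genes measured. Lower without overlap were 0 of 9 against 7.69%. Without salt array 2 Ppbp was 0.42, Gp9 0.39 and Treml1 −0.18. The limma test called 0 of 23505 genes (0%; 713 at an unadjusted p under 0.05). Whether salt acted differently in the 2 genotypes was not tested for these genes, since they were chosen for their pattern.

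**Figure D3:**
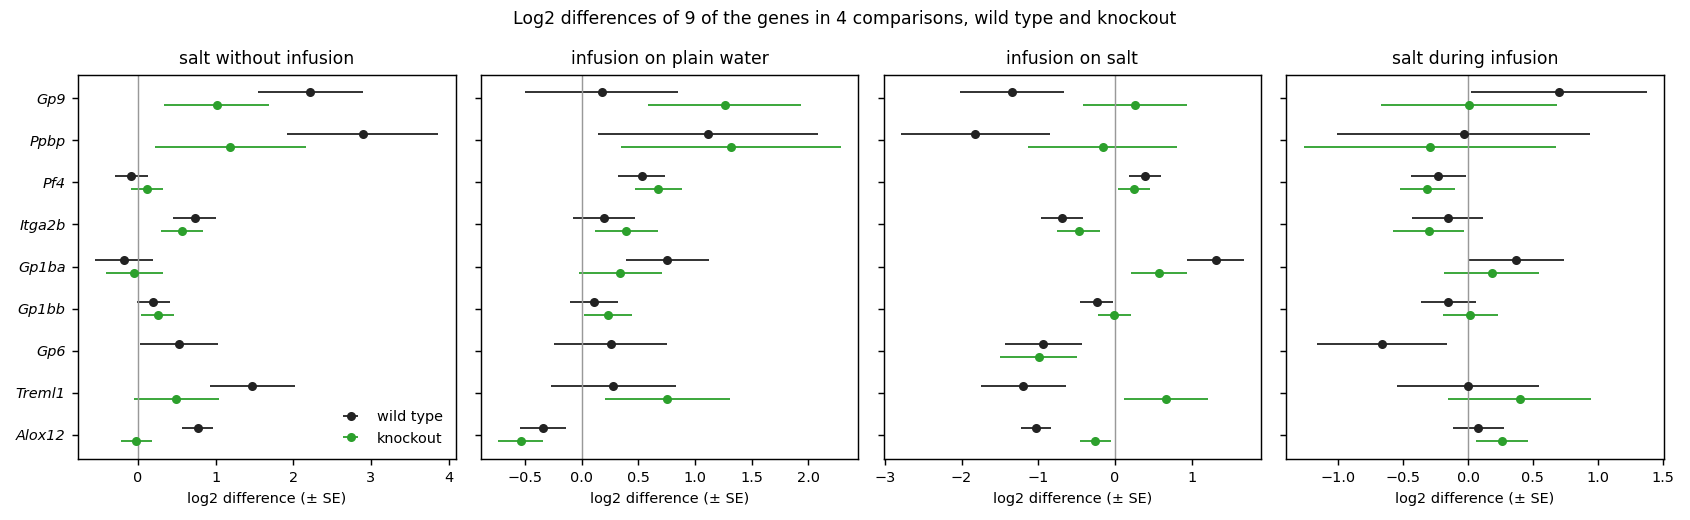
Log2 difference of 9 genes (without Gp5) in the 4 comparisons, wild type (black) and knockout (green), as point ± SE from the fit over all 24 arrays (3 arrays against 3); knockout Gp6 has no point where a group had 0 arrays well above background. Wild-type salt without infusion has the largest positive values, 2.90 for Ppbp and 2.22 for Gp9, and wild-type infusion on salt has the most negative, −1.82 for Ppbp.

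Infusion in wild-type mice on salt was set against salt alone. Gp1ba was 2.48-fold higher with infusion (log2 1.31, SE 0.37), at 27.6 to 33.4 against 8.83 to 16.7, and Pf4 was 1.31-fold higher (0.39, SE 0.21). Alox12 was 2.04-fold lower (−1.03, SE 0.20). These 3 did not overlap, 2 of 9 higher against 25.4% of all genes measured and 1 of 9 lower against 29.2%. Ppbp (−1.82, SE 0.97), Gp9 (−1.35, SE 0.68), Treml1 (−1.19, SE 0.55), Gp6 (−0.93, SE 0.50) and Itga2b (−0.69, SE 0.27) were lower on average and overlapped, and the second array with both lay within the range of the salt arrays for each of them. Without that array Ppbp was −2.51, Gp9 −2.08 and Treml1 −1.89. This comparison shares its salt arrays with the one before, so a high salt group enters both with opposite sign. The median of the 9 genes other than Gp5, from which nothing is read, was −0.93, beside −0.06 over all genes. With the readings of Gp5 it was −0.81, and then −0.31 without the first array with both and −0.13 with the normexp background.

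On plain water, infused wild-type arrays overlapped the controls for every gene but Alox12. Alox12 was 1.27-fold lower (log2 −0.34, SE 0.20), 1 of 9 lower against 19% of all genes measured. Ppbp was 1.11 (SE 0.97), Gp1ba 0.76 (SE 0.37), Pf4 0.53 (SE 0.21) and Gp9 0.18 (SE 0.68). Without infusion array 2 Ppbp was −0.0034 and Gp9 −0.57, and without infusion array 3 they were 2.45 and 0.65. No slide held both groups, and with slide as a block Alox12 was 0.09 and Treml1 1.36 in place of 0.28.

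In knockout mice on plain water the infusion gave Gp9 at 2.40-fold (log2 1.26, SE 0.68), Treml1 at 1.69-fold (0.76, SE 0.55) and Pf4 at 1.60-fold (0.68, SE 0.21) of the controls. These did not overlap, 3 of 9 higher against 17.9% of all genes measured. Gp9 was well above background on only 1 of the 3 controls, so its fold rests on a dim reference. Alox12 was 1.45-fold lower without overlap (−0.54, SE 0.20), 1 of 9 against 19.9%. Ppbp overlapped (1.32, SE 0.97; 0.58 without infusion array 1). On salt the knockout infusion gave Pf4 a value of 0.25 (SE 0.21) without overlap, 1 of 9 higher against 25.6%. It gave Gp6 one of −0.99 (SE 0.50) without overlap, 1 of 9 lower against 25.3%. Gp9 (0.26), Ppbp (−0.16) and Treml1 (0.66) overlapped there.

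During infusion, salt against plain water separated none of the 9 genes in the wild type. There 2.6% of all genes measured lay higher without overlap and 5.45% lower. The values ran from −0.66 for Gp6 to 0.70 for Gp9. In the knockout Alox12 alone was separated (0.26, SE 0.20), 1 of 9 higher against 3.74%. The mean of its probes gave −0.01 in place of 0.26. Limma called 0% of genes in both comparisons, with 1355 and 1064 genes at an unadjusted p under 0.05.

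Other genes of platelets and megakaryocytes were taken as a list of 33, of which 28 were measured. The list was also written with earlier results of these data known. Clec1b, the platelet receptor for podoplanin, was the gene most like the 10 over the arrays: its r with the mean of the standardised log2 signals of 9 members (those well above background on at least 12 arrays) was 0.83 (rho 0.79, 0.80 within groups), rank 1 of 23496. Clec1b was 16.9, 8.50 and 13.7 on the wild-type control arrays and 26.1, 19.2 and 23.98 with salt, a log2 difference of 0.87 (SE 0.37, limma adjusted p = 1). Clec1b was also high on the second wild-type array with both, at 23.7, and on knockout salt array 2, at 13.6 beside 6.96 and 7.12. The genes next in rank were Fkbp5 (r 0.67), Treml4 (0.62), Cd300ld4 (0.60), H2-Ob (0.60), Pifo (0.60), Slc6a6 (0.59) and 3 with only a database name. Nothing is read from those genes' roles.

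Several defining genes of the lineage were at or near background. Gata1, the factor that drives megakaryocyte and red cell genes, was well above background on 0 of 24 arrays. Tubb1, the tubulin of the platelet's marginal band, was so on 2, both of knockout mice. F2rl3, a thrombin receptor, was so on 9, Gfi1b on 8 and Cd226 on 4, and none of these 5 entered the tests.

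Salt changed 0 of the 28 measured genes in any of the 4 comparisons of salt with plain water (limma, adjusted p under 0.05, against 0% of all genes). Infusion on plain water changed 9 of 28 in the wild type, 7 higher and 2 lower, against 25.9% of all genes called. With slide as a fixed or a random block 0 of 28 passed there, no slide holding both groups. On salt it changed 14 of 28, 11 higher and 3 lower, against 32.9% (6 and 3 with the fixed slide block). In the knockout it changed 12 of 28 on plain water (9 higher and 3 lower, against 30.6%) and 8 of 28 on salt (7 higher and 1 lower, against 25.2%, of which 13.4% higher; 14 and 2 with the fixed slide block). These counts moved with single arrays. In the wild type on plain water 4 were higher and 1 lower without infusion array 2, and 11 and 4 without infusion array 3. On salt, the fit without salt array 1, 2 or 3 gave 7 and 1, 7 and 2, and 5 and 1, and without array 1 or array 3 with both it gave 8 and 1, and 4 and 1, while without array 2 with both it gave 12 and 6. In the knockout on plain water 5 and 1 passed without control 2, 6 and 1 without control 3, 3 and 1 without infusion array 1 and 5 and 3 without infusion array 2, and on salt 7 and 2 without salt array 2, 5 and 0 without array 1 with both and 4 and 1 without array 3 with both. The median log2 change of the 28 was 0.37, 0.41, 0.26 and 0.21 in these 4 comparisons, against −0.02, −0.06, −0.04 and −0.02 over all genes.

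Of the genes that rose with infusion, 5 of 7 and 8 of 11 in the wild type and 6 of 9 and 5 of 7 in the knockout were ones that leukocytes or endothelium also make, which are 19 of the 28 measured. Runx1, a transcription factor of blood cells, rose in all 4 comparisons, 4.35-fold (log2 2.12, SE 0.43, limma adjusted p = 0.00208) and 3.59-fold in the wild type on plain water and on salt, and 3.48-fold and 4.26-fold in the knockout. Lyn, a kinase of the Src family, rose 3.18-fold, 2.64-fold, 2.55-fold and 2.59-fold in the same order. Plek, the protein kinase C substrate pleckstrin, rose 3.34-fold, 2.33-fold, 3.30-fold and 2.48-fold. Selp, the granule adhesion molecule P-selectin, rose 3.14-fold and 2.41-fold in the wild type and 2.002-fold in the knockout on plain water. Of the genes more restricted to platelets, Tmem40 rose 3.18-fold, 2.16-fold, 2.51-fold and 3.47-fold, and Rab27b, which serves granule release, rose 2.08-fold, 2.14-fold, 1.74-fold and 1.94-fold. Fermt3, the integrin activator kindlin 3, rose 2.09-fold in the wild type on plain water, and 2.23-fold and 2.18-fold in the knockout. Zfpm1, a partner of GATA factors, rose 1.52-fold in the wild type on salt.

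P2ry12, the ADP receptor, rose 1.99-fold in the wild type on salt (log2 1.00, SE 0.34, limma adjusted p = 0.0328) and 1.95-fold in the knockout on plain water. The first call was lost without salt array 2 or 3 or without array 1 or 3 with both (log2 0.76 to 1.07), and the second without any 1 of the 3 controls or infusion array 1 or 2 (0.69 to 1.05) and with quantile normalisation (0.89). Itgb3, the β3 chain that pairs with Itga2b and that vessel wall cells also make, rose 1.58-fold in the wild type on salt (0.66, SE 0.21, limma adjusted p = 0.0254). That rise started from low salt readings, 2063.5 to 2166.5 against 2562.9 to 3330.2 in the wild-type controls. With both, Itgb3 read 2827.7 to 4327.6, overlapping the controls. With quantile normalisation Itgb3 was 0.45 and not past the threshold, and only 8 of 16 alternative settings left its result the same. Nfe2, a factor for late megakaryocyte maturation, fell 2.17-fold in the wild type on salt (−1.12, SE 0.39, limma adjusted p = 0.0374). That fall came after salt readings of 16.2, 20.0 and 18.6 against 9.72, 10.2 and 8.83 in the controls. With quantile normalisation Nfe2 was −0.99 and not past the threshold, and only 7 of 16 alternative settings left its result the same. Nfe2 had a log2 difference of 0.93 with salt alone (SE 0.39, limma adjusted p = 1). The few other genes that fell, named here after their values were seen, were Rasgrp2, an activator of the integrin switch Rap1 (1.99-fold in the wild type on plain water), the thromboxane receptor Tbxa2r (1.94-fold there), Pear1 (1.34-fold in the wild type on salt) and the cyclooxygenase Ptgs1 (1.52-fold in the wild type on salt). In the knockout Rasgrp2, Tbxa2r and Pear1 fell on plain water and Rasgrp2 on salt.

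Markers of other blood cells are given beside these values. The summed relative signal of 16 red cell genes was 45805 to 71693 on the wild-type salt arrays and 8616 to 83091 on the wild-type controls. The median log2 difference of the 10 measured red cell genes was 0.96 for wild-type salt without infusion and −0.83 for wild-type infusion on salt. In the knockout it was −0.43 for salt without infusion and 1.07 for infusion on salt. The medians of the 9 members other than Gp5 were 0.73 and −0.93 in the wild type, and 0.49 and −0.0078 in the knockout. Nothing is read from the members' medians. On the 8 arrays highest for Gp9 the summed signal of the 16 red cell genes was 21341 to 95497. On the other 16 arrays that sum was 2650 to 83091. Wild-type control array 3 and the first wild-type array with both had red cell sums of 83091 and 78436 with Gp9 at 14.5 and 8.74. The r of Hba-a1, an α-globin gene, with the mean of the 9 members was 0.45 (0.40 within groups). Red cell genes passed in 0 of 10 measured with salt in either genotype. The part of blood left in the samples in the Gp9, Ppbp and Treml1 values was not tested.

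Neutrophil markers other than Csf3r, a single bright probe that made up most of the sum of all 12, summed over 11 genes to 207 to 370 in relative signal on the wild-type salt arrays and 216 to 312 on the controls. The median log2 difference of the 8 measured neutrophil genes was 0.33 for that comparison, with 0 past the threshold. S100a8, a neutrophil granule gene that was not preset for naming, was at 742 on wild-type infusion array 2 and at 217 on knockout infusion array 1. Both were arrays high for Ppbp. S100a8 was at 4.56, 33.2 and 15.6 on the wild-type salt arrays, beside 13.9, 5.78 and 10.8 on the controls. Of the other measured neutrophil genes, S100a9 and Cxcr2 were also highest on wild-type infusion array 2. Elane and Mpo were highest on wild-type infusion array 1, and Csf3r on wild-type infusion array 3. Ly6g was highest on knockout infusion array 2, and Camp on the first wild-type array with both. The part of neutrophils in the Ppbp values was not tested.

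**Figure D4:**
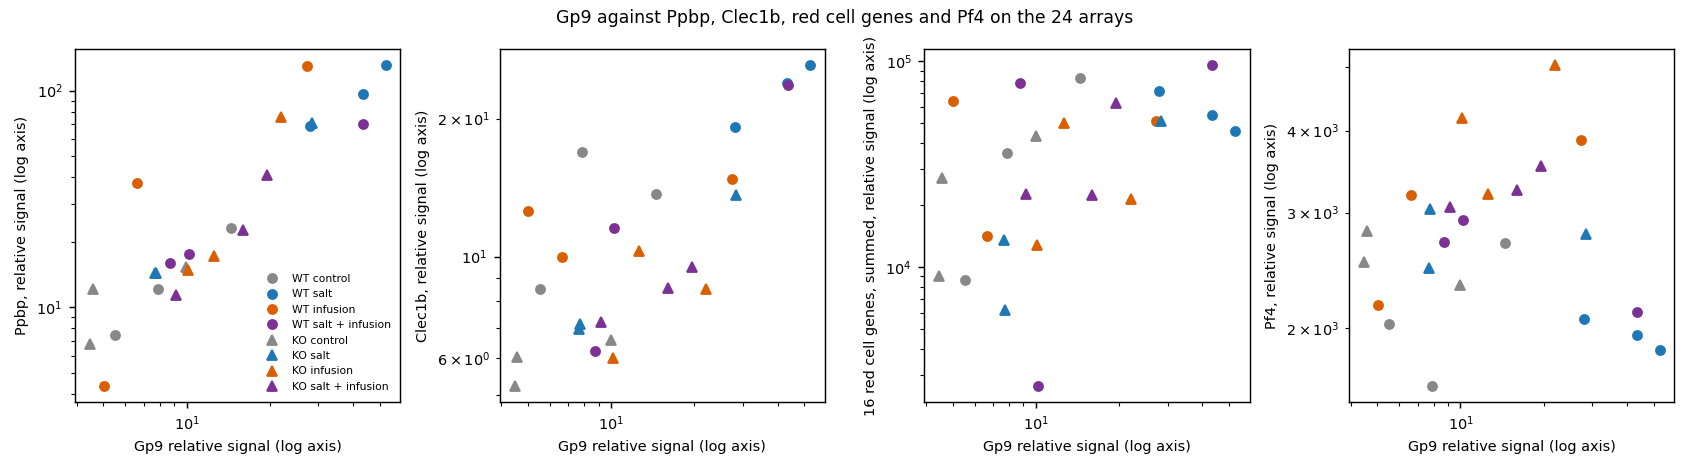
Relative signal of Ppbp, Clec1b, the 16 red cell genes summed and Pf4 (vertical, log axes) against Gp9 (horizontal, log axis) on the 24 arrays, circles for wild type and triangles for knockout, coloured by group. Ppbp (r 0.91) and Clec1b climb with Gp9, arrays with red cell sums of about the same size lie at low and high Gp9, and Pf4 (r −0.04) shows no such order.

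Pf4 stood nearer to another set of genes. The 5 genes most like Pf4 over the arrays were Nrros (r 0.94), Cd48 (0.93), Arhgdib (0.93), Ptafr (0.93) and Rps6ka1 (0.93), with r of 0.94, 0.90, 0.88, 0.79 and 0.82 within groups. Macrophages are also known to make Pf4, and 11 markers of resident macrophages and 11 of monocytes and macrophages were well above background on every array. With infusion 10 of the 11 measured monocyte and macrophage markers rose in the wild type on plain water and 8 on salt, and 8 in each knockout comparison, against 12.2%, 16.3%, 14.4% and 13.4% of all genes higher, while 0 passed with salt in either genotype. With slide as a fixed or a random block 0 and 1 of the 11 rose in the wild type on plain water. Of the 11 resident markers 4 rose and 3 fell in the wild type on plain water (1 and 0 with the fixed slide block, 0 and 0 with the random one) and 4 and 1 on salt, and 5 and 0, and 4 and 2, in the knockout. Mrc1, the mannose receptor, Lyve1, a hyaluronan receptor, and F13a1, a subunit of coagulation factor XIII that platelets also carry, passed in all 4 infusion comparisons, by 1.46, 0.50 and 1.01 (log2) in the wild type on plain water, where none of the 3 passed with either slide block. The part of macrophages in the Pf4 values was not tested.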

How the data were processed

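Cy3-labelled RNA was read on 24 Agilent arrays of one colour; the labels' protocols speak of cells where the sample labels name the aorta. The deposited processed signal is a spot intensity, background-subtracted by Feature Extraction 10.7.1.1 per the file headers (9.5.1.1 per the submitters' processing notes) and not normalised between arrays. The deposited flags for control, outlying and well-above-background spots are other values used as they stand. The authors' own table, deposited as linear intensity with a median of 30.98 on every array, was an alternative; how it was normalised is not given in the sources used here.

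From 59305 spots for 55681 probes, without 2910 outlier readings, the log2 signal minus the array's 75th percentile was taken. That percentile was 269 to 769, and 51.1% to 60.8% of spots were well above background. Tested probes (33377) had to exceed background on each of the 3 arrays in some group, with 2 or more values in every group, and the brightest stood for its gene (23505 genes). Names came from RefSeq accessions (27242 probes), RefSeq symbols (3579) or the file (24860). Promoters are RefSeq's, on GRCm38.p6; probe positions are mm9.

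A single limma 3.58.1 fit (R 4.3.3) with 8 group means gave 8 comparisons, Benjamini-Hochberg adjusted over all genes with a threshold of 0.05; it was tested on simulated data. The members and lists were chosen with earlier results of these data known, so members have SEs and no p-value. Named besides the members were preset partner and lineage genes, up to 4 genes of smallest adjusted p per comparison from the platelet and haemostasis lists, the 10 genes most like the members and the 5 most like Pf4. One preset gene is not reported here. With 3 arrays a group precision is limited, and p-values measure the spread between them.

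Titles and source names number the wild-type salt samples differently, and the source names were used. Same-numbered arrays did not deviate together (r −0.45 to 0.16, 36 pairs), so numbers pair nothing. Alternatives were quantile normalisation, normexp (offset 50), the authors' values, no filter, the mean of a gene's probes, slide as a fixed or random block (correlation 0.484), the replicate block, fits of the compared groups or a single slide, and fits without one array. The slide blocks counted for each marker list, medians without Gp5 and the neutrophil sum without Csf3r were chosen after seeing the data.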

Additional observations from a re-analysis of the deposited data

How the results depend on the processing

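Over the 8 comparisons and the 10 genes, quantile normalisation and the authors' values left all 80 log2 differences of the members within 1 SD of the main value. Those settings were nearly alike, with a median of 0.27 in both for wild-type infusion on plain water. No filter on dim probes could not move the differences, since each member kept its brightest probe in any case. Nor could the replicate block, whose numbers are balanced over the groups. With normexp 63 of 80 stayed within 1 SD, and with slide as a fixed block 68 of 80. With normexp the median of the members was 0.22 for salt without infusion and −0.13 for infusion on salt in the wild type. The mean of a gene's probes turned Gp1bb to −0.28 for wild-type salt and Alox12 to −0.011 for knockout salt during infusion, and the fixed slide block turned Alox12 to 0.091 for wild-type infusion on plain water; the cause was not tested. That comparison called 263 genes with the fixed slide block, 771 with a random one and 1233 with only its 2 groups in the fit, and knockout infusion on plain water 2413 with only its 2 groups. Where 0 genes were called with the main setting, wild-type salt gave 5 with the fixed and 3 with the random slide block, salt during infusion gave 9 in the wild type and 261 in the knockout with the fixed block and 4 and 1 without a filter, and the knockout 1 with the mean of probes. The few genes in those counts of 5 or fewer (Mthfd1l, 4930579P08Rik and an unnamed chromosome 10 locus with either slide block, AI661384 and Sgsm1 with the fixed one, Mmp10, AW987390, Olfr22-ps1, Cypt7 and an unnamed probe without a filter, and Scube1) include no member.

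With the replicate block 5661, 7395, 0 and 0 genes were called in the wild type for infusion on plain water, infusion on salt, salt alone and salt during infusion, and 6788, 5550, 0 and 0 in the knockout. The block left every one of these counts within 1.5 times. Only 2 of 24 arrays correlated best with their own number.

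Leaving out 1 array gave 2673 to 8114, 4477 to 8315, 0 to 1 and 0 to 15 called genes in the wild type in that order, and 3965 to 9754, 3612 to 5021, 0 to 2 and 0 to 92 in the knockout. The medians of the members, Gp5 included, ran from −0.0024 to 0.44, −1.24 to −0.31, 0.68 to 0.82 and −0.31 to 0.27, and from 0.31 to 0.58, −0.24 to 0.21, 0.10 to 0.50 and −0.16 to 0.26. The count was 3762 without wild-type control 1 and 2673 without infusion array 2 for wild-type infusion on plain water, 5104 without salt array 3 and 4477 without the third array with both on salt, 3965 without knockout infusion array 1 on plain water, and 3885 without knockout salt array 1 and 3612 without the third knockout array with both on salt. It was 15 without the third wild-type array with both and 92 without knockout infusion array 3 for salt during infusion. Gp5 was well above background on 0 of 24 arrays, Gp6 on 12 and Itga2b on 18, which limits what their differences show.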

Other observations

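Genes that regulate clotting and fibrinolysis in the vessel wall were followed as a list of 27, of which 22 were measured. With infusion 7 rose and 3 fell in the wild type on plain water and 11 and 2 on salt, and 10 and 1 in each knockout comparison, against 25.9%, 32.9%, 30.6% and 25.2% of all genes called. In the wild type on plain water 0 and 0 passed with slide as a fixed block and 0 and 1 with a random one; with salt 0 passed in either genotype. Plau, the plasminogen activator urokinase, rose 5.71-fold in the wild type on plain water (log2 2.51, SE 0.39, limma adjusted p = 0.000362) and 8.89-fold on salt, with 1 of 3 control arrays and 2 of 3 salt arrays well above background. Plaur, its receptor, rose 2.72-fold and 4.54-fold in the wild type and 5.82-fold and 4.03-fold in the knockout. Anxa2 and S100a10, which together bind plasminogen, rose 1.96-fold and 1.64-fold in the wild type on plain water. Entpd1, the endothelial enzyme CD39 that removes the platelet agonist ADP, fell 2.28-fold and 2.11-fold in the wild type and 2.22-fold and 2.24-fold in the knockout.

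Of 12 ligands and partners of the members 11 were measured; with infusion 7 rose and 1 fell in the wild type on plain water, 6 rose on salt, and 3 and 2 rose in the knockout, against 12.2%, 16.3%, 14.4% and 13.4% of all genes higher. In the wild type on plain water 2 rose with a fixed and 3 with a random slide block, while 0 passed with salt. Col1a1 and Col3a1, the collagens that Gp6 and von Willebrand factor bind, rose 1.68-fold and 1.48-fold with infusion in the wild type on plain water (limma adjusted p = 0.000225 and 0.00192). Pdpn, the podoplanin that Clec1b binds, rose 2.29-fold and 2.11-fold in the wild type and 2.08-fold in the knockout on plain water. Selplg, the ligand of P-selectin, rose 2.49-fold and 2.21-fold in the wild type. Alternative settings left these Selplg results the same in 8 of 15 on plain water and 9 of 16 on salt. For Pdpn in the wild type they did so in 10 of 15 and 13 of 16. Vwf, the ligand of the receptor made of Gp1ba, Gp1bb, Gp9 and Gp5, was between 3439 and 7330 in relative signal over the 24 arrays and passed in 0 of 8 comparisons. Thpo, the growth factor for megakaryocytes, was well above background on 0 of 24 arrays. Cxcr2, the receptor for the chemokine made from Ppbp, was so on 5, all infused on plain water, with 40.7 on wild-type infusion array 2. With slide as a block 263 genes in all passed in the wild type on plain water, so the number of calls in that comparison depends on how slides are treated.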
